A study of Mus musculus with 5 samples.

Results

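The first 24 h of dendritic cell stimulation were described from 4514 single cells: 1562 cells of the 24hrs-DC library and 2952 cells of the 0hrs library, of 13629 cells in the series. Cells were chosen by the library name in the deposited cell annotation. All cells were OT-I CD8+ T cells, which carry a transgenic T cell receptor for the ovalbumin peptide SIINFEKL, from spleen and lymph nodes of C57BL/6-Tg(TcraTcrb)1100Mjb/J mice. The 24hrs-DC cells had spent 24 h in culture with peptide-loaded dendritic cells (DCs). The 0hrs cells were those of the start of the co-culture, at 0 h. Both were sorted by flow cytometry and run on a droplet platform. The other 3 libraries were 24hrs-MDSC, 72hrs-DC and 72hrs-MDSC, of which the MDSC ones had myeloid-derived suppressor cells in the culture. Each group was 1 library, so no test was run, no difference has a replicate check, and every ratio compares 2 libraries. Without a library cultured away from peptide-loaded DCs, stimulation and 24 h of culture cannot be told apart.

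A CD8 T cell that has not met its antigen is small and quiescent, and factors such as KLF2, FOXO1, TCF1 and LEF1 keep it recirculating. Signals from the T cell receptor and costimulation act through NFAT, AP-1 and NF-kB and induce IRF4 and MYC, which are known to drive growth. In this first day the cell builds ribosomes, chaperones, nucleotides and lipids, and cell division follows. Cytokines such as IL-2 are made early, and cytotoxic granule proteins accumulate later.

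The deposited values were natural logs of 1 plus a whole number, adjusted by the authors to a nearly constant total per cell. These totals ran between 13617 and 15988 in 24hrs-DC cells and between 13061 and 15759 in 0hrs cells. Sequencing depth is therefore unknown. Levels are given in CPM, the adjusted counts of a gene for each 1000000 in its library. Cells held a median of 3583.5 genes above 0 at 24hrs-DC and 2210 at 0hrs. Of the CD8 T cell markers in the table, 7 of 7 stood at 10 CPM or more in both libraries, and their summed level was 2258 CPM at 24hrs-DC and 6994 CPM at 0hrs. Cells with 3 or more markers of another cell type numbered 12 (0.768%) at 24hrs-DC and 16 (0.542%) at 0hrs. Of these, 11 and 1 carried DC markers, and 1 and 14 natural killer cell markers. Without these cells 2849 genes were 2-fold higher and 743 lower, close to the counts given below. The limit of 3 markers could not find B cells, for which only 2 markers were used. Nor could it find CD4 T cells at 0hrs, where Cd4, 1 of their 3 markers, was listed at 0. The part of such cells in the results was therefore not tested. DC markers summed to 27.5 CPM at 24hrs-DC and 2.85 at 0hrs, and their part in the results was not otherwise tested. Of 10 myeloid markers in the table, Lyz2, S100a8, S100a9, Itgam and Mpeg1 were listed at 0 in the 24hrs-DC cells. Cebpb stood at 10 CPM or more in both libraries. The 10 markers summed to 34.9 CPM at 24hrs-DC and 15.8 at 0hrs. The libraries shared 7 cell barcodes. Background from free RNA in the droplets was not measured, because no cell type that should lack these genes was sorted. Exact 95% intervals of a share of cells were at most 5.02 percentage points wide at 24hrs-DC and 3.64 at 0hrs, and they cover counting error only.

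Values at 0hrs had a property that the other 4 libraries lacked. For 976 genes the 0hrs cells held fewer than 0.5 times the zeros that random counts of the same mean would give, against 0 such genes in each other library. For 789 of them the most frequent 0hrs value was exactly 1. Il2ra, the IL-2 receptor alpha chain, is an example: 94.7% of the 0hrs cells had the value 1. A ratio over such a baseline is smaller than one over zeros, so a rise can be understated and a fall overstated. These genes are called few-zero genes below. A further limit was set on 0hrs variance: 60 genes with a variance over mean below 0.5 at 0hrs, 57 of them few-zero genes, are given without a fold and left out of counts. They include Il2ra (163 CPM at 24hrs-DC, 67.9 at 0hrs), the minichromosome maintenance gene Mcm5 (164 and 74.5 CPM), and the mitotic genes Top2a, Birc5 and Cdk1. The cause of the few zeros was not tested.

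**Figure D1:**
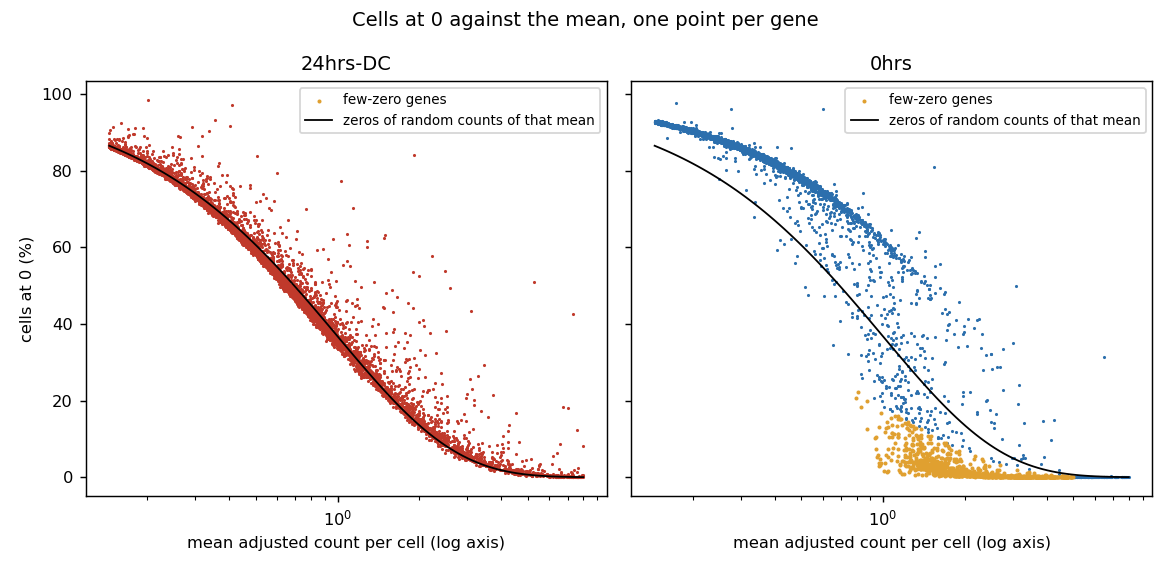
Share of cells at 0 (%) against the mean adjusted count per cell (log axis), 1 point per gene, for 24hrs-DC (left) and 0hrs (right); the line gives the zeros of random counts of that mean. The 24hrs-DC genes follow the line or lie above it, while 976 few-zero genes (orange) lie far below it at 0hrs.

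Genes were counted where either library reached 10 CPM. Of 6946 such genes, 2847 (41.0%) were higher at 24hrs-DC by 2-fold or more and 739 (10.6%) were lower by as much. The remaining 3360 were within 2-fold. The median log2 ratio over these genes was 0.73, so the middle gene was itself higher. With ratios centred on that median, 1416 genes were 2-fold higher and 1464 lower, that is 49.2% of the called genes higher in place of 79.4%. List medians below are to be read against 0.73, and list counts against 41.0% and 10.6%. Counts with centred ratios are to be read against 20.4% higher and 21.1% lower. At 50 CPM or more, 31.8% of genes were higher and 14.1% lower, with a median of 0.41. Without few-zero genes the median of all counted genes was 0.85. At 8-fold or more, 372 genes were higher and 123 lower. Of the few-zero genes, 919 were counted and 119 were higher, 91 lower and 709 within 2-fold.

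**Figure D2:**
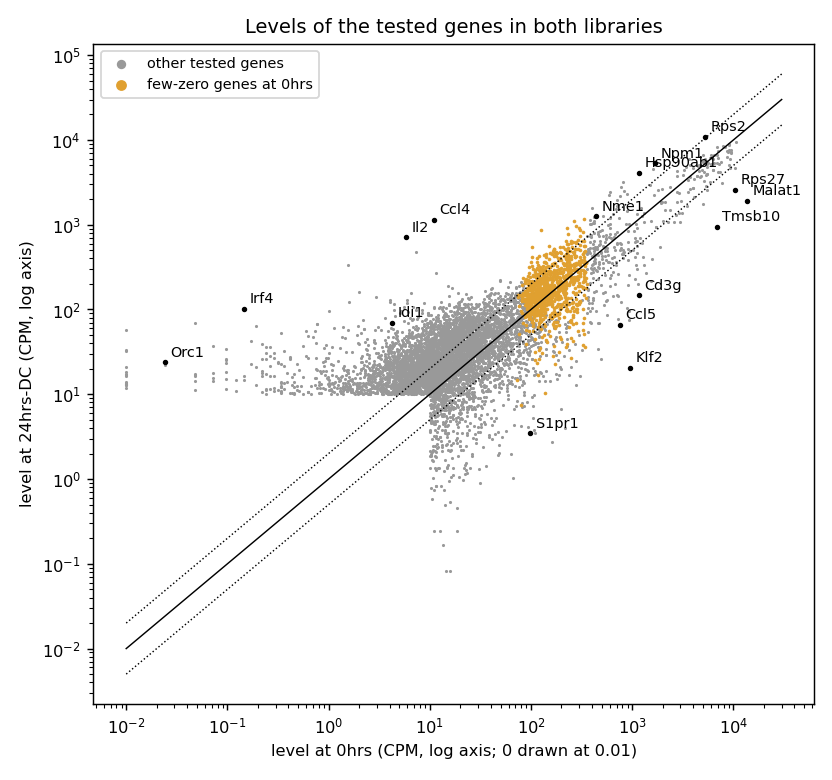
Level at 24hrs-DC against level at 0hrs (CPM, log axes) for the 6946 counted genes, with few-zero genes in orange; the solid line marks equal levels and the dotted lines 2-fold. Il2, Ccl4 and Irf4 lie above the lines, and Klf2, S1pr1, Malat1 and Tmsb10 below.

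The genes that separated the cells most cleanly were not those with the largest ratios. The separation is given as the probability that a random 24hrs-DC cell lies above a random 0hrs cell, with ties split evenly. It was 0.9 or more for 81 genes and 0.1 or less for 70. Highest was Hsp90ab1, a cytosolic chaperone of the HSP90 family, at 0.997: the interquartile range was 52 to 75 adjusted counts at 24hrs-DC and 12 to 20 at 0hrs. Npm1, the nucleolar protein nucleophosmin, had a median of 83 at 24hrs-DC and 23 at 0hrs (0.994). Eif5a, a translation factor activated by a polyamine-derived modification, had medians of 51 and 11 in the same order (0.992). Ran, the GTPase of nuclear transport, had medians of 35 and 8 (0.990). The other 11 of the 15 highest were Rps2, Mif, Ncl, Hsp90aa1, Nme1, Chchd2, the mitochondrial chaperones Hspe1 and Hspd1, Srm, Ranbp1 and Nhp2, of which the last 3 and Hspd1 were few-zero genes. The log2 ratios of these 15 lay between 1.06 (Rps2) and 2.76 (Srm), and each was above 0 in over 99% of the cells of both libraries. At the other end, Rps27, a ribosomal protein, stood at 0.00133 with medians of 39 at 24hrs-DC and 146 at 0hrs. Tmsb10, an actin-binding thymosin, stood at 0.00307 (medians 12 and 92.5), and Malat1, a nuclear noncoding RNA, at 0.00542 (medians 25 and 181). Klf2, Hcst, Crip1, Cd3g, Arhgdib, Itm2b, Btg1, Gmfg and Cox7a2l were among the 15 lowest too. For such genes the cells of both libraries scarcely overlapped, as the plot of adjusted counts per cell shows.

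**Figure D3:**
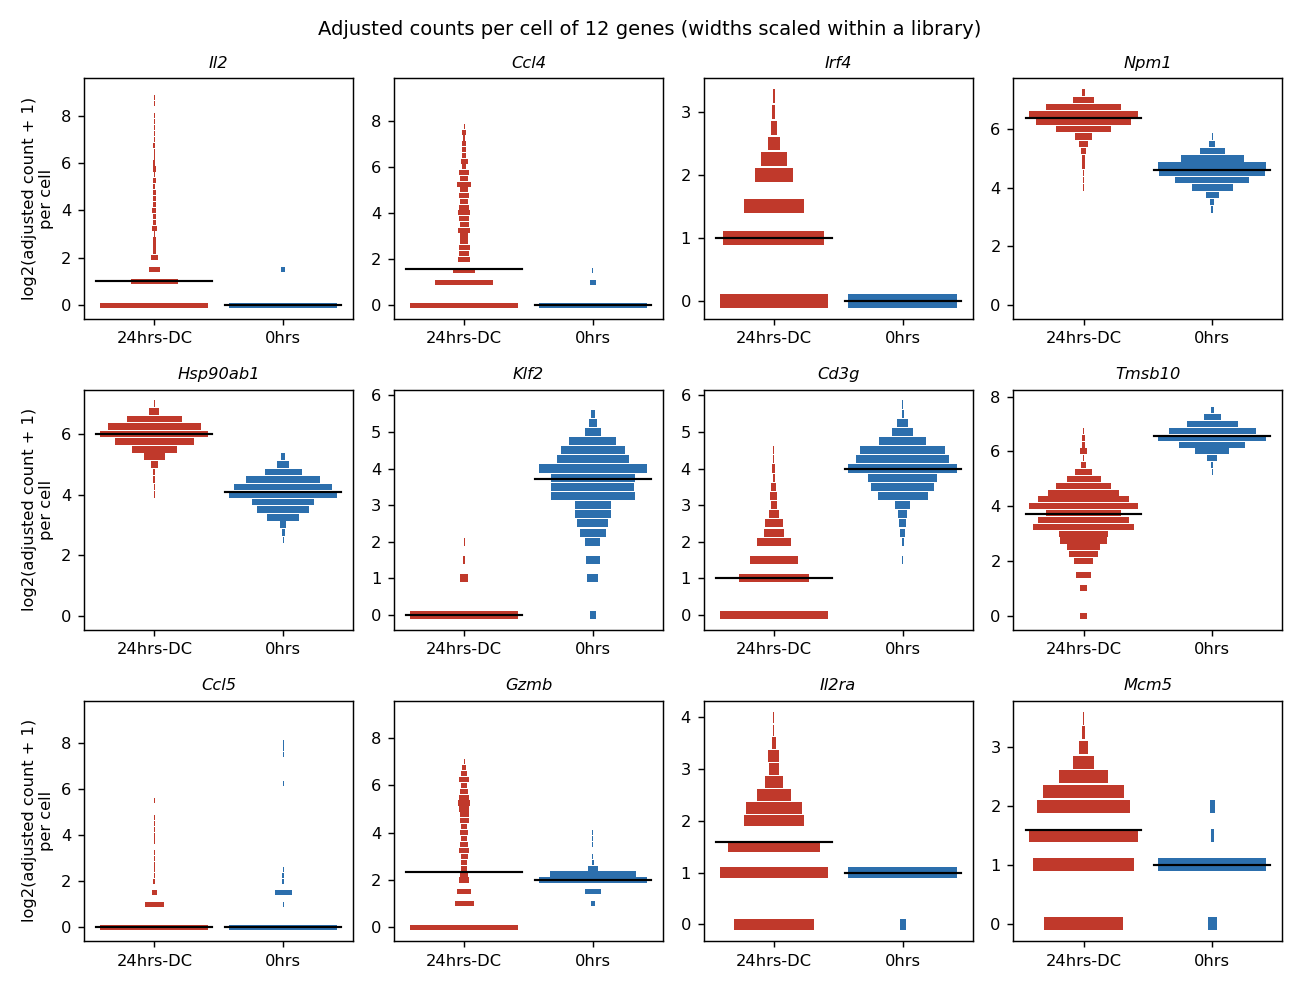
Adjusted counts per cell, as log2(count + 1), of 12 genes at 24hrs-DC (left, red) and 0hrs (right, blue); bar width is the share of cells scaled within a library and the black line the median. Npm1 and Hsp90ab1 lie higher and Klf2, Cd3g and Tmsb10 lower in nearly all 24hrs-DC cells, Il2, Ccl4 and Gzmb spread over a wide range, and Il2ra and Mcm5 show the 0hrs value of 1.

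T cell receptor components and their nearest signalling partners were lower as a group. Of 31 list members counted, 16 were 2-fold lower and 0 higher (median log2 ratio -1.30, and 23 lower with centred ratios). Cd3g, a chain of the CD3 complex, was at 148 CPM at 24hrs-DC and 1170 at 0hrs, and Cd3d, another, at 331 and 1311. The interquartile range of Cd3g was 0 to 3 adjusted counts at 24hrs-DC and 11 to 20 at 0hrs. Lowest was Txk, a TEC family kinase, at 14.2 CPM against 155 (log2 ratio -3.45), followed by the few-zero gene Fyb, an adapter protein, at 27.0 against 246. Lck, the kinase that starts receptor signalling, was at 238 CPM at 24hrs-DC and 610.1 at 0hrs. Members within 2-fold included the adapter Lat (490.0 and 544 CPM), Zap70 (68.9 and 108) and Cd8a (412 and 659). Cd5 and Cd6, receptors that temper T cell receptor signals, had log2 ratios of 0.79 and 0.72, near the median gene. Summed per cell, 94.2% of the 24hrs-DC cells lay below the 5th percentile of the 0hrs cells.

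Of 15 immediate early genes counted, 6 were 2-fold higher, 2 lower and 7 within 2-fold, with a median of 0.72, close to that of all counted genes. Fos and Fosb, subunits of AP-1, were at 2.76 and 1.44 CPM at 24hrs-DC and at 161 and 35.7 CPM at 0hrs. Fos was above 0 in 3.71% of the 24hrs-DC cells and 58.6% of the 0hrs cells. Their partner Jund was within 2-fold, at 394 CPM at 24hrs-DC and 508 at 0hrs. Nr4a1 and Nr4a3, nuclear receptors induced by T cell receptor signals, were at 36.0 and 26.7 CPM at 24hrs-DC and at 3.36 and 0.943 at 0hrs. Egr2 was at 11.2 and 1.02 CPM, and Atf3 at 13.5 CPM at 24hrs-DC while listed at 0 at 0hrs. Myc was above 0 in 83.4% of the 24hrs-DC cells and 27.4% of the 0hrs cells.

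The factors downstream of these signals were higher. Of 20 counted members of the IRF4, BATF and NF-kB list, 12 stood 2-fold higher and 0 lower (median log2 ratio 1.51). Irf4, which encodes a factor that scales with receptor signal strength, was above 0 in 69.5% of the 24hrs-DC cells and 0.102% of the 0hrs cells. Nfkb2 (90.3 CPM at 24hrs-DC, 9.58 at 0hrs) and Relb (49.9 and 14.7) encode the noncanonical NF-kB pair, and Rel (51.3 and 9.77) encodes c-Rel. Genes of the inhibitor family stood higher with them: Nfkbid at 86.8 and 9.82 CPM, and Bcl3, an atypical member of that family, at 32.8 and 6.92. Batf3 was at 32.4 CPM and listed at 0 at 0hrs, where 0 of 2952 cells with a count allows a share of such cells of up to 0.102%, which does not limit the cells that express it. NFAT genes, whose proteins are mainly regulated by dephosphorylation, were within 2-fold: Nfatc1 had a log2 ratio of 0.65, Nfatc3 0.30 and Nfatc2 0.27. Summed per cell over this list, 72.2% of the 24hrs-DC cells lay above the 95th percentile of the 0hrs cells.

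Among factors of effector fate, 5 of 17 counted were 2-fold higher and 3 lower. Bhlhe40, a repressor known for its role in cytokine expression, was at 63.5 CPM at 24hrs-DC and 1.94 at 0hrs. Tbx21, which encodes T-bet, was at 43.7 and 2.81 CPM, above 0 in 43.3% and 1.52% of the cells. Eomes, its relative, had a log2 ratio of 2.03, and Stat5a was at 83.6 and 14.7 CPM. Tox, Ikzf1 and Gata3 were lower, with Ikzf1 at 61.1 CPM at 24hrs-DC and 167 at 0hrs. Id2 (71.5 and 60.5) and Runx3 (65.6 and 81.1) were within 2-fold.

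Quiescence and naive state factors were the counterpart: of 33 counted, 23 were 2-fold lower and 1 higher, with a median of -2.04. Klf2, which maintains quiescence and homing, was above 0 in 11.1% (exact 95% interval 9.56 to 12.7%) of the 24hrs-DC cells and 99.3% (98.9 to 99.5%) of the 0hrs cells. Tsc22d3, a glucocorticoid-induced leucine zipper gene, was at 3.46 CPM at 24hrs-DC and 111 at 0hrs (log2 ratio -5.00). Pik3ip1, an inhibitor of PI3 kinase, was at 5.23 and 106 CPM, Txnip, an inhibitor of glucose uptake, at 7.12 and 82.0, and the antiproliferative gene Btg1 at 105 and 886. The transcription factor genes Lef1 (49.8 and 296 CPM) and Tcf7 (131 and 317) were lower by less, with Tcf7 still above 0 in 78.9% of the 24hrs-DC cells against 99.1% at 0hrs. Id3 (106 and 96.7 CPM) and the few-zero gene Foxp1 (194 and 224) were within 2-fold. Bach2, a repressor that restrains effector differentiation, was the member 2-fold higher, at 55.5 CPM at 24hrs-DC and 18.1 at 0hrs, and it was not among the higher members with centred ratios. The per-cell sum lay below the 5th percentile of the 0hrs cells in 98.4% of the 24hrs-DC cells.

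All GIMAP GTPases, a family known for the survival of lymphocytes, had a log2 ratio below 0, and 7 of 8 were 2-fold lower (median -1.55). Gimap7 was at 30.7 CPM at 24hrs-DC and 127 at 0hrs, and Gimap6 at 90.4 and 359.6. As 5 of the 8 were few-zero genes, Gimap7 among them, their 0hrs levels carry the limit given above. Of genes of homing, egress and adhesion, 14 of 26 were 2-fold lower and 6 higher (median -1.06). Itgb7, an integrin chain of gut homing, was at 21.2 CPM at 24hrs-DC and 246 at 0hrs, the chemokine receptor gene Ccr9 at 7.45 and 52.9, and S1pr4 at 17.2 and 111. Higher ones included Cd44, a hyaluronan receptor, at 72.3 CPM at 24hrs-DC and 5.56 at 0hrs, Gpr171 at 103 and 26.7, and Icam1 at 53.1 and 15.9. Ccr7, a chemokine receptor gene of lymph node entry and a few-zero gene, had a log2 ratio of 0.90.

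Cytokine genes had the largest median of the 45 lists, a log2 ratio of 5.79. Of 14 counted, 10 were higher by 2-fold and 3 lower. Il2, the growth factor gene of activated T cells, was at 715 CPM at 24hrs-DC and 5.88 at 0hrs. It was above 0 in 52.4% (49.9 to 54.9%) of the 24hrs-DC cells and 4.03% (3.35 to 4.80%) of the 0hrs cells. Its adjusted counts were held by few cells, as the 157 highest of the 1562 24hrs-DC cells held 81.9% of them. Ifng was more concentrated, with 97.0% in the highest 157 cells and 15.8% of the cells above 0. Ccl4 was spread more widely, with 60.8% in those cells and 71.3% of the cells above 0. For comparison the 157 cells highest for Npm1 held 14.5% of its counts, and those highest for Irf4 32.2%. Less abundant members were Tnf (59.1 CPM at 24hrs-DC, 2.23 at 0hrs), Lif (23.2 and 0.0968) and Ccl9 (22.8 and 0.484). Ccl1 was listed at 0 at 0hrs. At 24hrs-DC it was above 0 in 1.54% of the cells, and 4 cells held 67.9% of its counts. Mif, a cytokine that T cells make constitutively, was at 2776 CPM at 24hrs-DC and 783 at 0hrs and above 0 in all cells of both. Il16, a chemoattractant for CD4-bearing cells, was lower at 16.9 CPM against 89.4.

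Within the 24hrs-DC cells the cytokine genes went together in part. Ccl4 was above 0 in 90.3% of the cells with Ccl3 and 52.9% of those without, and the Spearman correlation of the pair over 1562 cells was 0.72. It was 0.51 for Il2 with Ccl4 and 0.46 for Xcl1 with Ccl4. Gzmb went the other way: it was above 0 in 50.2% of the cells with Il2 and 79.8% of those without (Spearman correlation -0.43), and in 57.2% of the cells with Ccl4 and 82.0% of those without (-0.31). Il2 and Ifng showed little relation (-0.03), as 15.3% of the cells with Il2 and 16.4% of those without had Ifng. All these points share 1 library and a nearly fixed total per cell, so they are a description of that library.

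The chemokine gene Ccl5 was held mostly by a small set of cells at 0hrs, and fewer cells were high for it at 24hrs-DC. At 24hrs-DC 17 cells (1.09%, exact interval 0.635 to 1.74%) held 20 or more adjusted counts of Ccl5, and they had 52.1% of its counts there. At 0hrs 173 cells (5.86%, 5.04 to 6.77%) held 20 or more, and they had 94.9% of its counts there. The limit of 20 and the genes set beside it were chosen after the values were seen, and 19 cells at 24hrs-DC and 42 at 0hrs lay between 10 and 40. The distance between the libraries moved with the limit: the shares were 3.46% at 24hrs-DC and 8.37% at 0hrs at a limit of 5, 1.86% and 6.74% at 10, and 0.640% and 5.32% at 40. In the 17 24hrs-DC cells Klrk1, which encodes the receptor NKG2D, was at 251 CPM against 3.28 in the other 24hrs-DC cells, Nkg7 at 2661 against 540.2, and Xcl1 at 2322 against 451. Cd44 was at 35.9 against 72.7 CPM there, Klf2 at 83.7 against 19.8, and Igfbp4 at 31.9 against 18.5. In the 173 0hrs cells Ly6c2, a surface antigen of antigen-experienced and some other T cells, was at 857 CPM, against 63.9 CPM in the other 0hrs cells. Klrk1 was at 329 against 0.745 CPM there, Cxcr3 at 92.0 against 8.42, Cd44 at 44.3 against 3.18, Il2rb at 138 against 34.1, and Xcl1 at 120.1 against 0.308. In the same 173 cells Igfbp4 was at 26.8 against 98.6 CPM and Lef1 at 148 against 305, while Klf2 was at 1018 against 943. Whether the Ccl5-high cells became fewer or the gene was expressed less in them cannot be told apart.

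Of 28 counted genes of cytokine receptors and their signalling feedback, 8 were 2-fold higher and 10 lower. Higher ones included both chains of the IL-12 receptor, with Il12rb1 at 40.1 CPM at 24hrs-DC and 1.96 at 0hrs and Il12rb2 at 24.6 and 1.23. So were the STAT5-induced inhibitor Cish, at 118 and 5.90 CPM, and the kinases Pim3 (108 and 11.1) and Pim2 (216 and 49.8). Lower ones included the receptor genes Il6ra (3.37 CPM at 24hrs-DC, 44.2 at 0hrs), the few-zero gene Ifngr1 (25.8 and 120.3) and Il18r1 (1.03 and 10.7), as well as the common gamma chain Il2rg (71.5 and 234) and Jak1 (60.9 and 223). Il2rb had a log2 ratio of 0.93 and the few-zero gene Pim1 one of 0.66.

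Of 21 costimulatory and TNF family genes counted, 10 were higher and 5 lower. Tnfrsf4, which encodes OX40, was at 159 CPM at 24hrs-DC and 2.01 at 0hrs, Tnfsf11, the ligand RANKL, at 30.7 and 0.242, and Cd83 at 21.2 and 0.194. Cd7 was lowest, at 3.95 and 215 CPM, and Slamf6 (22.7 and 89.3) and Cd27 (101 and 287, a few-zero gene) were also lower. Inhibitory receptors and signalling brakes had 15 of 30 higher and 6 lower (median 1.12). Ctla4 was at 25.1 CPM at 24hrs-DC and 0.0968 at 0hrs, Pdcd1, which encodes PD-1, at 14.8 and 0.121, Lag3 at 75.9 and 2.18, and Cd200 at 116 and 4.38. Spry1 (16.8 CPM) and Rgs16 (17.3 CPM) were listed at 0 at 0hrs. Lower brakes included Dgka, a diacylglycerol kinase that limits Ras signalling, at 17.8 and 125 CPM, Sla2 at 11.9 and 51.0, and the phosphatase Dusp1 at 5.06 and 16.9. This median was not stable: in a total that left out genes of ribosomal proteins and mitochondria it was -0.015, and without a minimum level -0.199. Each of these 2 settings counted 33 members in place of 30, so the set of members changed too.

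Cytotoxic genes were mostly not higher at 24 h. Of 14 counted, 3 were 2-fold higher and 5 lower. Serpinb9, an inhibitor of granzyme B, was at 129 CPM at 24hrs-DC and 5.97 at 0hrs. Gzmb, a few-zero gene, was at 1118 and 266 CPM, but its cells were spread: the interquartile range was 0 to 25 adjusted counts at 24hrs-DC and 3 to 4 at 0hrs, 64.3% and 99.7% of the cells were above 0, and the probability of a 24hrs-DC cell lying higher was 0.506. At 24hrs-DC 447 cells (28.6%) had 20 or more and held 86.6% of the Gzmb counts. Hcst, the signalling adapter DAP10, was at 26.0 and 492 CPM, Klrd1, which encodes CD94, at 6.67 and 196, and Ctsw, a cathepsin of cytotoxic lymphocytes, at 28.1 and 212.

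Genes for growth were higher in nearly all cells. Ribosome biogenesis had 45 of 52 members 2-fold higher and 0 lower, with a median of 1.81 over all, 2.09 over the 38 that were not few-zero genes, and 27 higher with centred ratios. Leading members were Utp20 (37.4 CPM at 24hrs-DC, 4.33 at 0hrs) and Rrp12 (35.6 and 4.18), which process ribosomal RNA, Polr1b (37.0 and 4.33), a subunit of RNA polymerase I, and the RNA methyltransferase Nop2 (103 and 12.4). The lowest log2 ratios were those of the few-zero genes Fbl, 0.63, and Polr1c, 0.69. The per-cell sum exceeded the 95th percentile of the 0hrs cells in 98.4% of the 24hrs-DC cells. Nuclear import and export had 31 of 37 higher and 0 lower (median 2.16), led by Rcc1, the exchange factor of Ran, at 106 and 6.75 CPM. Nucleoporins such as Nup205 (24.5 and 2.78) and Nup155 (22.1 and 2.73) followed.

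**Figure D4:**
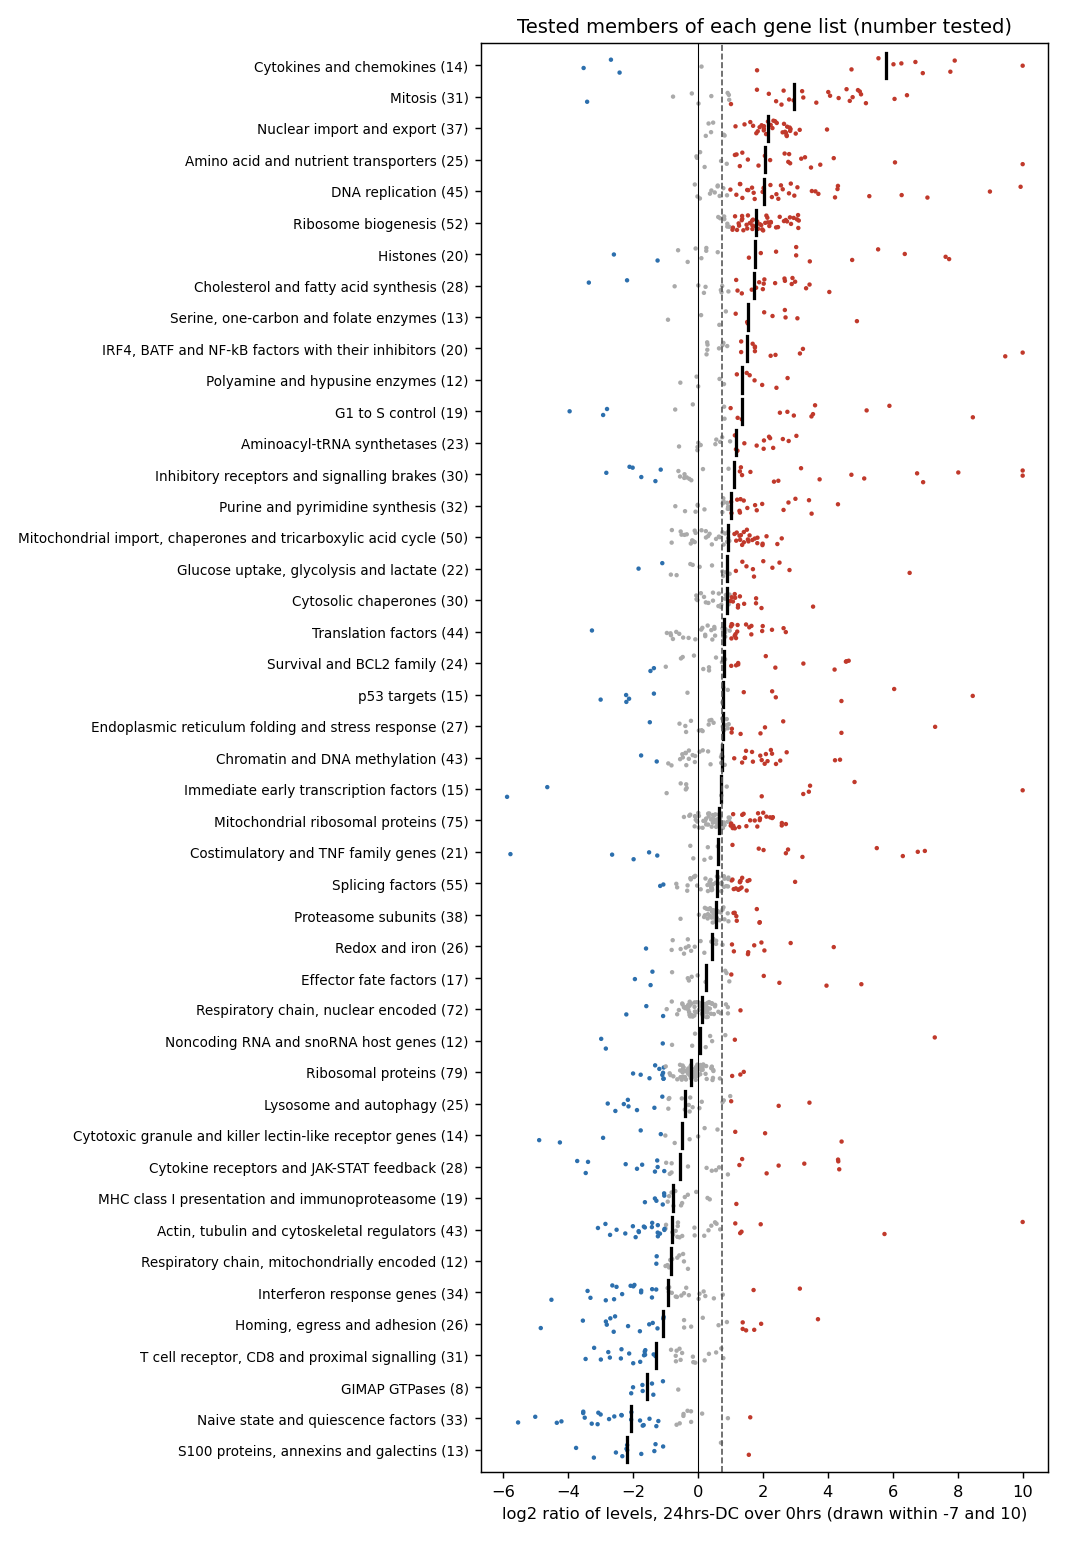
Log2 ratio of levels, 24hrs-DC over 0hrs, for the counted members of the lists with 8 or more (number in brackets), 1 point per gene in red (2-fold higher), blue (2-fold lower) or grey; black bars are list medians and the dashed line the median of all genes, 0.73. Cytokines lie at the top and S100 proteins at the bottom.

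Genes for the supply of building blocks were higher too. Nutrient transporters and amino acid aminotransferases had 19 of 25 higher and 0 lower (median 2.07). Bcat1, which transaminates branched-chain amino acids, was at 69.5 CPM and above 0 in 65.7% of the 24hrs-DC cells, against 0.0484 CPM and 0.0339% at 0hrs. Tfrc, the transferrin receptor, was at 95.5 and 5.25 CPM, the folate carrier Slc19a1 at 99.4 and 7.28, Slc7a5, the light chain of the large neutral amino acid transporter, at 68.8 and 6.14, and the nucleoside carrier Slc29a1 at 87.1 and 9.58. Slc3a2, the heavy chain that pairs with Slc7a5, was a few-zero gene at 138 CPM in 24hrs-DC cells and 140.01 in 0hrs cells. One-carbon enzymes had 9 of 13 higher and 0 lower (median 1.54): Shmt1 was at 121 and 4.06 CPM and Mthfd1 at 75.4 and 11.6. Purine and pyrimidine synthesis had 17 of 32 higher and 0 lower (median 1.03), with Nme6 at 61.6 and 3.10 CPM, Ctps at 90.3 and 8.42, and Ppat, the first enzyme of purine synthesis, at 71.4 and 10.3. With centred ratios 9 of these were higher and 2 lower. In polyamine and hypusine metabolism 7 of 12 were higher (median 1.36), among them the few-zero genes Srm, spermidine synthase, at 855 and 126 CPM and Odc1, ornithine decarboxylase, at 552 and 103. Oaz1, the antizyme that inhibits ornithine decarboxylase, was level, at 1259 CPM at 24hrs-DC and 1248 at 0hrs.

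Cholesterol and fatty acid synthesis had 18 of 28 members higher and 2 lower (median 1.73). Idi1 and Cyp51, enzymes of the sterol pathway, were at 69.7 and 46.7 CPM at 24hrs-DC and 4.21 and 4.31 at 0hrs. Fasn, fatty acid synthase, was at 56.7 and 7.52 CPM. The exporter Abcg1, a target of LXR, was lower at 1.85 CPM against 18.9, and the desaturase Scd2 at 7.65 against 34.6. Summed per cell the list had a median of 10 adjusted counts at 24hrs-DC and 4 at 0hrs, and 49.8% of the 24hrs-DC cells lay above the 95th percentile of the 0hrs cells.

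In glycolysis 10 of 22 were higher and 2 lower (median 0.91). Hk2, the inducible hexokinase, was at 55.6 CPM at 24hrs-DC and 0.605 at 0hrs, the lactate carrier Slc16a1 at 52.8 and 9.24, the glucose transporter Slc2a1 at 27.8 and 8.37, and Ldha, lactate dehydrogenase, at 1982 and 701. Gpi1, which follows hexokinase, was lower at 172 CPM against 366, and Pdk1, an inhibitor of pyruvate entry into mitochondria, at 21.2 against 74.9. With centred ratios 5 were higher and 4 lower. Mitochondrial import, chaperone and tricarboxylic acid cycle genes had 22 of 50 higher, near the share over all counted genes, and 0 lower, and with centred ratios 8 higher and 6 lower. Among them Lonp1, a matrix protease, was at 68.8 and 12.6 CPM. Nuclear-encoded respiratory chain genes had 1 of 72 higher and 3 lower (median 0.13), and mitochondrially encoded ones 0 of 12 higher and 2 lower (median -0.82). Cox7a2l, a factor in the assembly of respiratory supercomplexes, was at 231 CPM at 24hrs-DC and 1062 at 0hrs.

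Of 44 translation factors 18 were 2-fold higher, a share like that of all counted genes. With centred ratios 5 were higher and 9 lower, and without few-zero genes the median was 0.23. Initiation factor 2B subunit Eif2b3 was at 62.7 CPM at 24hrs-DC and 9.58 at 0hrs and the cytoplasmic poly(A)-binding protein gene Pabpc4 at 119 and 19.1. The log2 ratio was between -0.95 and -0.45 for the eIF3 genes Eif3e, Eif3h, Eif3f, Eif3m and Eif3k, and -0.84 for Eef1a1, although the few-zero gene Eif3a had one of 1.06. Pdcd4, an inhibitor of initiation, was the member 2-fold lower, at 14.3 and 136 CPM. Aminoacyl-tRNA synthetases had 13 of 23 higher and 0 lower, with Iars at 58.5 and 7.14 CPM. Of 79 ribosomal protein genes 66 were within 2-fold, 3 higher and 10 lower, and together they took 37.5% of the adjusted counts at 24hrs-DC and 43.4% at 0hrs. Rps27 and its paralog Rps27l, which is a known p53 target, went apart: Rps27 was at 2598 and 10326 CPM and Rps27l at 1012 and 379. The sources used here do not say how reads of such near copies were assigned.

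Genes of cell cycle entry and DNA replication were higher. Among G1 to S regulators 12 of 19 were higher and 3 lower: E2f1 was at 57.7 CPM at 24hrs-DC and 1.57 at 0hrs, Ccne2, a cyclin E, at 21.6 and 0.363, the phosphatase Cdc25a at 56.0 and 4.79, and Ccnd2, a D cyclin, at 1036 and 406. The lower ones were inhibitors or a cyclin of quiescence: Cdkn1b, which encodes p27, at 3.33 and 23.1 CPM, Cdkn2d, which encodes p19, at 18.7 and 141, and Ccng2 at 1.11 and 17.1. DNA replication had 34 of 45 higher and 0 lower (median 2.03), with 6 more members left out for low 0hrs variance. Orc1, of the origin recognition complex, was above 0 in 31.0% (28.8 to 33.4%) of the 24hrs-DC cells and in 1 of 2952 0hrs cells. Mcm10 was at 37.0 and 0.0726 CPM, Cdc6 at 35.7 and 0.266, the histone chaperone gene Chaf1a at 56.2 and 0.726, and Pole at 22.1 and 1.11. Mitosis genes were at lower levels: 23 of 31 were higher and 1 lower (median 2.95), with 7 more left out. With those kept in, 23 of 38 were higher and 3 lower. Among the 6 counted members at 50 CPM or more, 0 were higher and 1 lower. Sgol1, a guardian of chromosome cohesion, was at 18.9 and 0.218 CPM, Aurkb at 27.0 and 0.992, and Ccnb1, cyclin B1, at 12.4 and 0.484. The lower member, Cenpa, was a few-zero gene at 7.45 and 78.9 CPM. Of 73 histone genes 53 were under 10 CPM in both libraries, and of the 20 counted 11 were higher and 2 lower. The replication-dependent Hist1h1b was at 14.4 and 0.0726 CPM and Hist1h2ag at 15.5 and 0.0726, while the replication-independent H2afv, a few-zero gene, was at 31.8 and 190.4. The median of the histone list, 1.76, was -0.066 among its 7 members at 50 CPM or more, of which 0 were higher and 1 lower.

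The replication list was past its 0hrs limit in more cells than the mitosis list. The median sums at 24hrs-DC were 41 adjusted counts for replication and 6 for mitosis, and the part of this difference in level was not tested. Without few-zero genes, 1214 of the 1562 24hrs-DC cells lay above the 95th percentile of the 0hrs cells for DNA replication and 793 for mitosis, and 789 for both. Only 4 cells were above the mitosis limit without being above that of replication, and 425 the other way round. Ribosome biogenesis was past its limit in 1534 cells, of which 323 were not past that of replication. Cytokine sums had no such order: they were above their limit in 37.1% of the cells past the replication limit and in 34.8% of those not past it. That limit was 76.45 adjusted counts, while the 75th percentile of the 0hrs cells was 29, and 5.86% of the 0hrs cells held 20 or more of Ccl5. The sum also takes in Mif, at 20 or more in 96.0% of the 24hrs-DC cells. It therefore does not measure Il2 or Ccl4 alone. Over the 24hrs-DC cells the number of genes above 0 per cell had a Spearman correlation of 0.78 with the replication sum and 0.70 with the mitosis sum, and its part in these counts was not tested. A further 17 24hrs-DC cells (1.09%) were within both the 0hrs ribosome biogenesis limit and the 0hrs limit for quiescence factors. They had a median of 2239 genes above 0, against 2210 in 0hrs cells, and 0 of them carried 3 or more markers of another cell type. That count could not find B cells, for which only 2 markers were used.

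**Figure D5:**
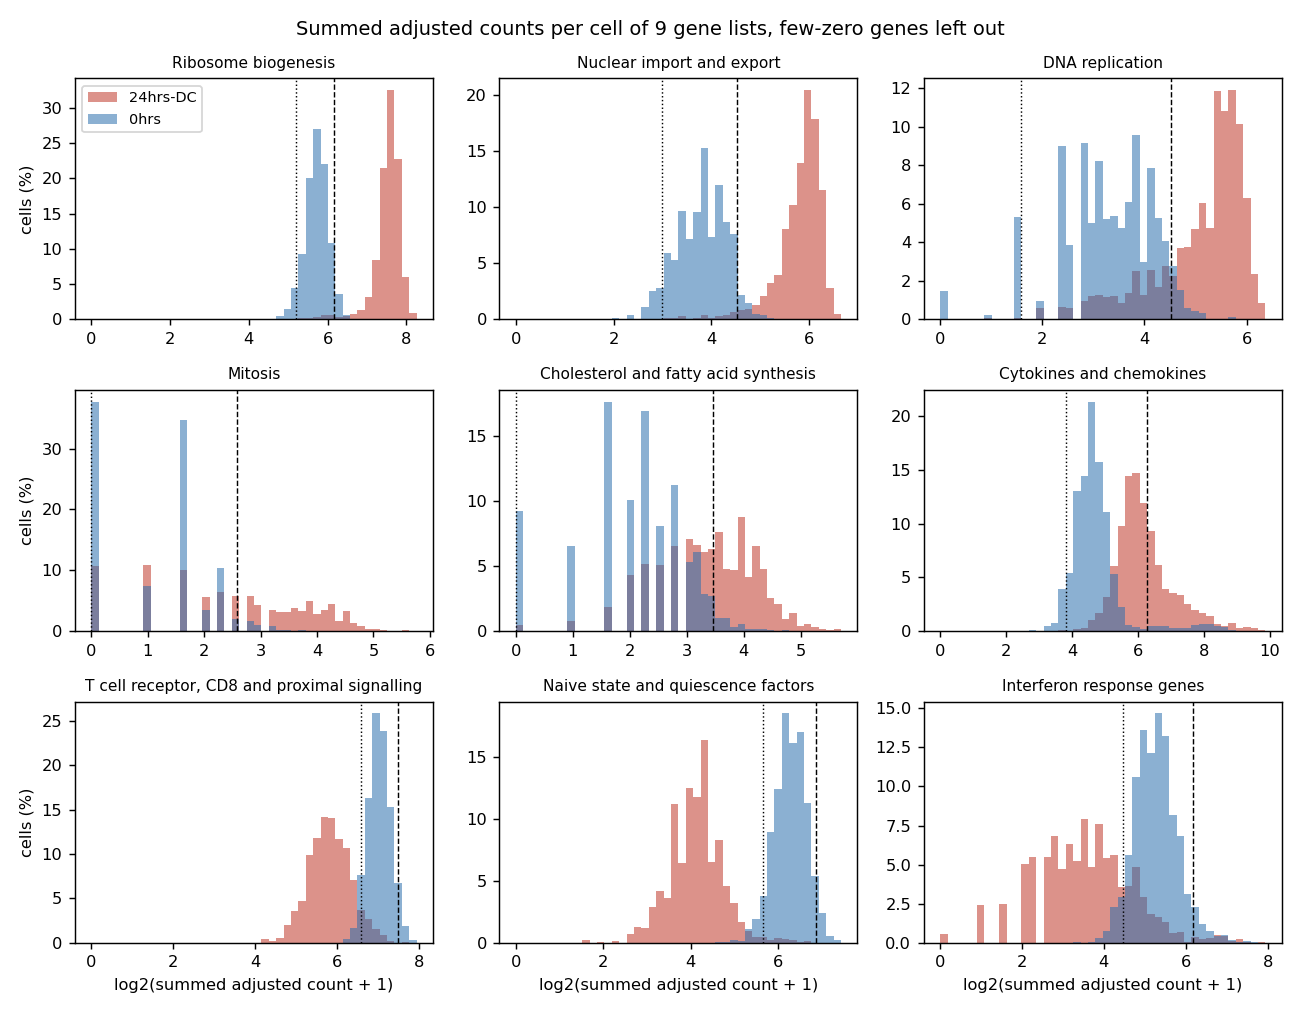
Summed adjusted counts per cell, as log2(sum + 1), of 9 gene lists without few-zero genes, as the percentage of cells of 24hrs-DC (red) and 0hrs (blue); dotted and dashed lines mark the 5th and 95th percentiles of the 0hrs cells. Ribosome biogenesis and quiescence factors scarcely overlap, DNA replication and mitosis have a lower tail within the 0hrs range, and cytokines have an upper tail.

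Of 34 interferon response genes, 16 were 2-fold lower and 2 higher (median -0.91). Ifi203 was at 4.11 CPM at 24hrs-DC and 93.4 at 0hrs, Irf7 at 5.72 and 32.4, and Ifit1, an RNA-binding antiviral protein, at 2.80 and 19.9. The 2 higher ones were the GTPases Iigp1 (12.4 and 1.40) and Gbp2, which interferon gamma is known to induce. Gbp4 (26.3 and 22.4) and Irf1 (47.1 and 46.2) were level. A part of interferon gamma in these levels was not tested. MHC class I presentation had 12 of 19 within 2-fold, 6 lower and 1 higher, and without few-zero genes 3 of 14 lower: H2-D1 was at 935 and 1724.5 CPM and B2m at 1892 and 3052, within 2-fold, and the few-zero gene H2-Q7 at 114 and 284. Structural genes were lower in number: of 43 cytoskeletal genes 19 were 2-fold lower and 6 higher (median -0.78, and 29 lower with centred ratios). Vim, vimentin and a few-zero gene, was at 38.5 and 324 CPM, Coro1a, an actin regulator of lymphocytes, at 397 and 1586, and Arhgdib at 203 and 1144. Lmna, which encodes lamin A, was higher at 61.1 and 1.14 CPM and Tubb6, a beta tubulin, was at 12.8 CPM and listed at 0 at 0hrs. Of S100 proteins, annexins and galectins 11 of 13 were lower and 1 higher (median -2.17): Lgals1 was at 95.4 and 436 CPM, and S100a6, a few-zero gene, at 10.3 and 138.

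Of 24 survival genes counted, 11 were higher and 2 lower (median 0.81), near the shares over all counted genes. Bcl2l1, which encodes Bcl-xL, was at 154 CPM at 24hrs-DC and 6.46 at 0hrs, and Bcl2a1b at 122 and 12.8. Bcl2, a few-zero gene, was at 96.9 and 266 CPM, and Mcl1 within 2-fold at 115 and 77.9. Gadd45b, a stress sensor induced by NF-kB, was at 272 and 11.5 CPM and above 0 in 90.7% and 11.4% of the cells. Among p53 targets 6 of 15 were higher and 5 lower, with Perp at 17.1 and 0.0484 CPM, Phlda3 at 36.7 and 0.556, and Sesn1 at 3.70 and 17.1. Genes outside the lists with large ratios were Dnph1, a nucleotide hydrolase, at 56.7 CPM and listed at 0 at 0hrs, Plscr1 (97.2 and 1.02), Hic1, a transcriptional repressor (67.1 and 0.774), and Arhgdig (63.2 and 0.194). At the lower end were Hsd11b1, an enzyme that regenerates active glucocorticoid (1.03 and 66.9), Smpdl3a (1.98 and 63.5) and Ramp1, part of the receptor for the neuropeptide CGRP (4.20 and 80.02). The host transcript of the microRNA miR-155, Mir155hg, was at 53.2 and 0.339 CPM.

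Promoter sequences are shown for 5 members, to set known motifs beside genes of the lists. Promoters span 250 bases before to 50 after the start, from RefSeq on build GRCm38.p6, and were found for 5401 of the 6946 counted genes, with the first start listed used for each gene. Capitals mark the motif on either strand. Orc1 (chr4:108579204-108579503, plus strand) held 1 match to the E2F motif TTTNNCGC, which began 27 bases before the start. Nme1, a nucleoside diphosphate kinase (chr11:93968223-93968522, minus strand), held the E-box CACGTG bound by MYC and MAX, 18 bases before it. Idi1 (chr13:8885356-8885655, plus strand) held 2 CCAAT boxes, Ifit1 (chr19:34640639-34640938, plus strand) 2 interferon-stimulated response elements (GAAA, any 2 bases, GAAA), and Ccl3 (chr11:83649329-83649628, minus strand) the NFAT core GGAAAA.
Orc1: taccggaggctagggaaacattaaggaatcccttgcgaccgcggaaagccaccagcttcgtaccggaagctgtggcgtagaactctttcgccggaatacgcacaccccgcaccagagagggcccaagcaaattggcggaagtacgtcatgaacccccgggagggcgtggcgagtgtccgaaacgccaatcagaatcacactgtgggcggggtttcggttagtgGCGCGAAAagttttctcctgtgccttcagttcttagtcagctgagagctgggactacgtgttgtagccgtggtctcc
Nme1: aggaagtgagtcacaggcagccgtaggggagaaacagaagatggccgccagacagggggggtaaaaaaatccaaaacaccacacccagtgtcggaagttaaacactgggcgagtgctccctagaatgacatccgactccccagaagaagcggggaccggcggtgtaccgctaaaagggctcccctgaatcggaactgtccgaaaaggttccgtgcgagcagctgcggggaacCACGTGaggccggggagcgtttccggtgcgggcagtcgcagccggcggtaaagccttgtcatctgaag
Idi1: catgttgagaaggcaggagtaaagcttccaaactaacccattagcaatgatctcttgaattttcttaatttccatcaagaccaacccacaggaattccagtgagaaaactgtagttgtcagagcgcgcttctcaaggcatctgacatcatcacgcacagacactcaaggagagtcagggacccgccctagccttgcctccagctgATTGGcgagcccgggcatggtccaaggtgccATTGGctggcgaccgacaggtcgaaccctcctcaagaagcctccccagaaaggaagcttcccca
Ifit1: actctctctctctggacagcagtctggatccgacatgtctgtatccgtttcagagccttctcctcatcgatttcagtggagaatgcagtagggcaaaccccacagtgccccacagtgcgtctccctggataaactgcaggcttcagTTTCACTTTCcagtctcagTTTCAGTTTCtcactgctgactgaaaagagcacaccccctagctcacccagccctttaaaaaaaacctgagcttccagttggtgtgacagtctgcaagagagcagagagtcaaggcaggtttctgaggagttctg
Ccl3: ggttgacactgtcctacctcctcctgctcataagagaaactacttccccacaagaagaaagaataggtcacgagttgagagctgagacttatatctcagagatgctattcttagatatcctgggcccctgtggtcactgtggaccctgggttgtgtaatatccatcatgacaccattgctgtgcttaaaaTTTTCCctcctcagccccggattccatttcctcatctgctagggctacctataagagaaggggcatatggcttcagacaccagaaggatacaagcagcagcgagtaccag
Each is the member with the largest finite ratio, in the list's direction, among the candidates of its list. Candidates held the motif and were not few-zero genes. Members without a finite ratio, such as Ccl1, are not among those shown. The E2F motif was in 14 of 37 replication promoters (37.8%), against 10.6% of the counted genes and 5.27% of the 27025 promoters of the table. The E-box was in 10 of 46 ribosome biogenesis promoters (21.7%) and 5 of 29 nucleotide synthesis promoters (17.2%), but 1 of 12 serine, one-carbon and folate promoters (8.33%), against 11.1% of the counted genes and 7.24% of all promoters. CCAAT was in 17 of 21 sterol and fatty acid promoters (81.0%) and 18 of 25 mitosis promoters (72.0%), against 39.2% of the counted genes and 37.9% of all. Interferon-stimulated elements were in 12 of 25 interferon response promoters (48.0%), against 3.20% and 3.49%. The NFAT core was in 4 of 12 cytokine promoters (33.3%), against 20.5% and 23.6%, and the AP-1 motif TGANTCA in 3 of 12, against 4.30% and 7.93%. The sterol regulatory element TCACNCCAC was in 1 of 21 sterol and fatty acid promoters (4.76%), against 0.907% and 1.22%. A match describes these letters in this window and does not show binding.

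Levels in the other libraries set the 24 h values in their course. Il12rb2 was at 1.23 CPM at 0hrs, 24.6 at 24hrs-DC and 54.9 at 72hrs-DC. Several genes low at 24hrs-DC stood higher again at 72 h: Klf2 was at 947, 20.5 and 139.7 CPM at 0hrs, 24hrs-DC and 72hrs-DC, Cd3g at 1170, 148 and 972, Tmsb10 at 6829, 953 and 5924, Itgb7 at 246, 21.2 and 257, and Cdkn2d at 141, 18.7 and 197. Il6ra was low at both later times, at 44.2, 3.37 and 0.103 CPM. Bcl2l1 (6.46, 154 and 15.8 CPM), Lmna (1.14, 61.1 and 2.37) and Mir155hg (0.339, 53.2 and 1.58) were higher at 24hrs-DC than at the other times. At 24hrs-MDSC Bcl2l1 was at 142 CPM, Lmna at 79.2, Mir155hg at 51.4, Klf2 at 10.96, Cd3g at 129.6, Il12rb2 at 25.6 and Ctla4 at 17.3. All comparisons with 0hrs share that library, so they are given side by side and no agreement between them was computed.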

How the data were processed

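Droplet libraries of sorted OT-I CD8+ T cells were made as stated in the labels' protocols. Per the submitters' processing notes, the tools were Cell Ranger 2.0.1 and Seurat, and the build mm10. Their roles and order were not stated. The deposited table of all time points holds natural log values, ln(1 + whole number), per gene and cell, and every back-transformed value was whole within a tolerance of 1e-06. The sources used here do not say how the authors adjusted the whole numbers. They are not counts of molecules, since each cell's total is nearly fixed, so no count model was used and depth is unknown. Doublets were not called. The separate tables of 24 h and 72 h were not used here.

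Levels in CPM, ratios, shares of cells and per-cell sums were computed with Python 3.11.15, NumPy 2.4.6 and SciPy 1.17.1. A gene was counted at 10 CPM or more in either library with a 0hrs variance over mean of 0.5 or more, and called at 2-fold. A few-zero gene had fewer than 0.5 times the zeros of random counts of its mean, where 20 or more were expected. Each gene list was described by its counts and median beside those of all counted genes. Named genes were the 15 with the largest ratios at 50 CPM or more and the 15 with the most separated cells in each direction, the 15 most variable at 24hrs-DC, the 3 outermost members of each of 45 lists in each direction, and a set of well-known genes. Further list members and the Ccl5 cells were chosen after their values were seen. The members, lists and limits were chosen with earlier results of these data known. The code of the calling rule was run on simulated random counts drawn around the 0hrs means. These lacked the few zeros and the extra spread of the real values, so the run bears on the code only. Motifs were sought on both strands. Alternatives covered scaling, level and fold limits, cells with 3 or more markers of another type, low-variance genes and few-zero genes, the last chosen after the data were seen.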

Additional observations from a re-analysis of the deposited data

How the results depend on the processing

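No paired analysis was possible because each group was 1 library, and for the same reason no replicate could be left out. In place of 2847 genes higher and 739 lower, there were 1416 and 1464 with centred ratios, 853 and 379 at a minimum of 50 CPM, 148 and 146 at 200 CPM, 4749 and 1709 without a minimum, and 1062 and 300 at 4-fold. Both counts stayed within 1.5 times under the other 10 settings, among them 2728 and 648 without few-zero genes and 2969 and 758 with their most frequent 0hrs value taken as 0. Of the called genes, 79.4% were higher at first and 73.4% where genes of ribosomal proteins and mitochondria were left out of the total (2847 higher, 1033 lower). Of list medians past 2-fold, 2 changed sign: inhibitory receptors and signalling brakes, 1.12, had -0.015 under that total and -0.199 without a minimum level, and histones, 1.76, had -0.066 at 50 CPM. The members counted changed as well, from 30 to 33 for the inhibitory list and from 20 to 7 for histones. No named gene past 2-fold changed sign under the scalings run. Centring, the changed total and 1 CPM added to both levels could not have changed such a sign, so for them this outcome was fixed. Ratios of few-zero genes are the least certain, and the cause of the few zeros was not tested. Unknown depth and 1 library per group limit every value here.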
